A study of Homo sapiens with 6 samples.

Results

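Entry of a cell from G1 into S phase is set by a small group of proteins, and 10 of their genes were examined in WFA treated THP1 cells. They are the D-type cyclins CCND1, CCND2 and CCND3, the E-type cyclins CCNE1 and CCNE2, the kinases CDK4 and CDK6, and the CDK inhibitors CDKN1A, CDKN1B and CDKN2C. They were picked by name from the 26485 genes of the count table,. D-type cyclins bind CDK4 and CDK6 and start the phosphorylation of RB1, the pocket protein that holds E2F transcription factors in check. E-type cyclins, whose genes are themselves E2F targets, bind CDK2 and complete that step. CDKN2C (p18INK4C) binds CDK4 and CDK6 and keeps D-type cyclins off them, whereas CDKN1A (p21) and CDKN1B (p27) act mainly on cyclin-CDK2 complexes.

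THP1 is a human acute monocytic leukemia cell line. The cells received Withaferin A (WFA), a steroidal lactone, or its DMSO vehicle for 6 h, with 3 RNA-seq libraries per group, 1 from each of 3 independent experiments. The sample labels give the WFA concentration as 1 mM and the study's methods as 1 μM, and all 6 libraries come from the same line, so the data speak for this line alone. RNA was taken from bulk cultures, in which fewer cells in a phase of the cycle and less RNA per cell cannot be told apart.

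Total counts lay between 11006035 and 13872810 per library, and the 100 most counted genes took 17.5% to 19.8% of the reads in the DMSO libraries and 23.2% to 23.5% in the WFA libraries. Of the 13 monocytic markers, all of which were detected, 5 were lower and 2 were higher with WFA in edgeR's test, which called 24.7% of all tested genes lower and 25.8% higher. Their summed level was 3234 to 3999 CPM with DMSO and 3117 to 4194 CPM with WFA, and LYZ gave the largest share. Markers of other cell types summed to 363 to 412 CPM with DMSO and 329 to 346 CPM with WFA, most of it from PECAM1, which monocytes also express. The erythroid and platelet markers HBB and PPBP were at 0 in every library, and 7 of the 14 genes on that list had at most 3 counts. Of the 4 genes on that list that were tested, 2 were higher and 1 was lower with WFA. Among those higher, COL1A1 rose from 0.453 ± 0.333 to 9.95 ± 2.27 CPM (SD, n = 3 each, edgeR adjusted p = 7.18e-08). Among the monocytic markers CD33, TLR4, CSF1R, SPI1 and CD14 were lower, and CD68 and FCGR2A rose by 0.37 and 0.56 on the log2 scale (edgeR adjusted p = 0.00528 and 0.00011). CD14 fell from 5.72 ± 1.89 to 2.45 ± 0.466 CPM (SD, n = 3 each, edgeR adjusted p = 0.00165). The part of these markers in the results on the 10 genes was not tested.

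Promoter sequences from RefSeq (GRCh38.p14) are shown for the gene with the strongest fall and the gene with the strongest rise, CCNE1 and CDKN1A. Each is the 250 bases before the RefSeq start, 5′ to 3′ on the gene's own strand. GGGCGG, the core of an Sp1 site, is in capitals on either strand. The CCNE1 window lies at chr19:29811741-29811990 and that of CDKN1A at chr6:36678464-36678713, both on the plus strand. GENCODE, used for the gene positions given below, starts these genes earlier, CCNE1 at chr19:29811898 and CDKN1A at chr6:36676460. By those starts the CDKN1A window lies wholly inside its gene and the CCNE1 window partly inside its gene.
CCNE1: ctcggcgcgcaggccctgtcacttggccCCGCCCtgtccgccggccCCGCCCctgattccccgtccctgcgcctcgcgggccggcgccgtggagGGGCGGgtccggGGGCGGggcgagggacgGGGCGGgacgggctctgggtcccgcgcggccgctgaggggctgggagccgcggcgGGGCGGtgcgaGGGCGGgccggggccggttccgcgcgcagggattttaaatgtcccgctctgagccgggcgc
CDKN1A: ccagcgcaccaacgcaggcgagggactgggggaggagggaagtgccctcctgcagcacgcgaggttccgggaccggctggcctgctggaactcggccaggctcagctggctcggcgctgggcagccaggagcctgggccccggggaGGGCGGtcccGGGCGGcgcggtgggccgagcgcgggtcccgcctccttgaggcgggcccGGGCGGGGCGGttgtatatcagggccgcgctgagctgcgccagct

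There were 7 matches to GGGCGG in the CCNE1 window and 4 in the CDKN1A window, and the last pair in the CDKN1A window overlaps. RefSeq listed 12 starts for 7 of the 10 genes, and 9 of these windows held GGGCGG, against 42.6% of 35116 promoter windows of the same length. The exact E2F words TTTCCCGC and TTTGGCGC were in 0 of the 12 windows and in 1.93% of all windows. The heat shock element word GAANNTTC was in 1 of the 12, at a start of CCND3, against 5.78%, and the ATF4-type word TGATGNAA in 0 against 3.14%. TGACNNNGC, the core of the antioxidant response element, was in 3 windows, those of CCNE1, CDK4 and CDKN1B, against 10.9%. CCAAT was in 4 windows against 32.0%. These words were sought on both strands, and a word in a window is no evidence that a factor binds there. With 12 windows, some of them from the same gene, the lack of a word that is rare in all windows says little.

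All 10 genes passed the filter on low counts. With edgeR's quasi-likelihood test and a threshold of 0.05 on the adjusted p-value, CDKN1A and CDKN2C were higher with WFA, and CCND1, CCNE1, CCNE2 and CDK4 were lower. CCND2, CCND3, CDK6 and CDKN1B did not pass. Thus both E-type cyclins fell, 1 of 3 D-type cyclins fell, 1 of the 2 kinases fell, and 2 of 3 inhibitors rose. This makes 2 of 10 genes higher and 4 of 10 lower, against 25.8% and 24.7% of all 12854 genes tested, so the share of rises is near the background and that of falls is above it, with no test of either. The same 2 and 4 genes were those whose WFA libraries lay wholly above or wholly below the DMSO libraries, as did 29.6% and 28.5% of all genes tested. The median log2 change, WFA minus DMSO, was -0.17 over the 10 genes and 0.02 over all genes tested. Only 3 changes were over 2-fold, those of CDKN1A, CCNE1 and CCNE2. A larger absolute change was found for 2.59% of all tested genes in the case of CDKN1A, 7.27% for CCNE1 and 11.4% for CCNE2, but for 45.5% in the case of CDK4.

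**Figure D1:**
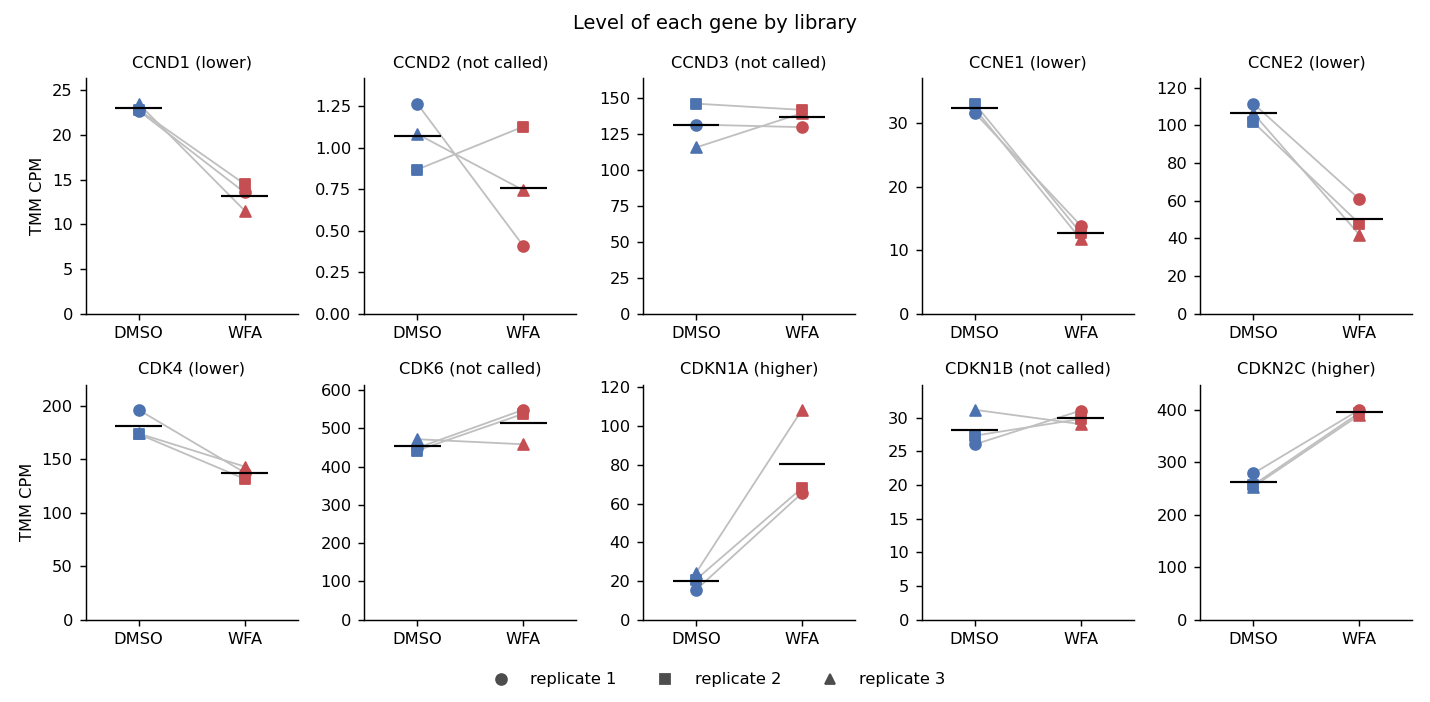
Level of each of the 10 genes as TMM-normalised CPM on axes that start at 0, with 1 point per library, grey lines joining libraries of the same replicate number and black bars at the group means (n = 3). CCND1, CCNE1, CCNE2 and CDK4 sit lower and CDKN1A and CDKN2C higher in every WFA library, and the other 4 genes overlap.

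The D-type cyclins were examined first, since they connect growth signals to the cycle. Expression is given as CPM, the share of a gene in the library's counts after TMM scaling of the library size. CCND1 (chr11:69641087-69654474, GRCh38) had 22.7, 22.8 and 23.5 CPM in DMSO replicates 1, 2 and 3 and 13.6, 14.5 and 11.5 CPM in the WFA replicates. Its DMSO libraries were nearly identical and each WFA library lay well below them, with a log2 change of -0.80 (SE 0.13, edgeR adjusted p = 9.22e-05). WFA left 57.5% of the DMSO level. CCND3 (chr6:41934933-42050357) is the D-type cyclin with the most reads in these cells. It had 132, 146 and 116 CPM with DMSO and 129.8, 142 and 139.6 CPM with WFA. The groups overlapped, and its log2 change was 0.06 with a 95% interval of -0.14 to 0.27 (edgeR adjusted p = 0.603). Its sign changed with total counts in place of TMM and without DMSO replicate 3, to -0.02 in both cases.

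CCND2 (chr12:4273772-4305350) was close to the limit of detection. It had 18, 11 and 13 counts with DMSO and 5, 14 and 8 counts with WFA, which overlap. Its log2 change of -0.49 had a 95% interval of -1.33 to 0.34 (edgeR adjusted p = 0.31), which holds both a 2-fold fall and no change, so a difference was not detectable at this depth and spread between libraries. With 1 library left out the log2 change ran from -0.91 to -0.18. The ratio of CCND1 to CCND3 inside each library, which no scaling can alter, moved from a log2 mean of -2.50 ± 0.19 with DMSO to -3.38 ± 0.19 with WFA (SD, n = 3 each). The groups did not overlap (exact two-sided permutation p = 0.1, the smallest that 3 against 3 libraries allow, and 0.14 after adjustment over 7 ratios). That test ignores the shared experiments. An exact sign-flip test within pairs of the same replicate number gave p = 0.25, the smallest that 3 pairs allow. The within-pair p was also 0.25 for each ratio below that did not overlap. On the linear scale CCND1 reads went from 0.176 to 0.0959 per CCND3 read. The 3 D-type cyclins summed to 140.2 to 169.9 CPM with DMSO and 144 to 157 CPM with WFA, as CCND3 made up most of it.

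The E-type cyclins showed the largest falls of the group. CCNE1 (chr19:29811898-29824308) had 31.7, 33.1 and 32.3 CPM with DMSO and 13.9, 12.7 and 11.7 CPM with WFA. The WFA libraries held 39.6% of the DMSO level and came nowhere near its range, and the log2 change was -1.34 (SE 0.12, edgeR adjusted p = 2.91e-07). CCNE2 is its close relative with the same partner kinase. It had 112, 102 and 106 CPM with DMSO and 60.9, 47.8 and 41.9 CPM with WFA, a log2 change of -1.09 (SE 0.12, edgeR adjusted p = 2.38e-06). WFA libraries of CCNE2 were more spread than those of CCNE1 but remained far from the DMSO range. Together the E-type cyclins went from 135 to 143 CPM with DMSO to 53.6 to 74.7 CPM with WFA. The log2 ratio of CCNE2 to CCNE1 was 1.72 ± 0.10 with DMSO and 1.96 ± 0.15 with WFA (SD, n = 3 each), with no overlap between the groups (exact permutation p = 0.1, adjusted p = 0.14).

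The exons of CCNE2 share bases with those of INTS8, a gene on the opposite strand, over 37.0% of the CCNE2 exon length in GENCODE 29. INTS8 itself did not pass the test, at 162 ± 5.53 CPM with DMSO and 173 ± 8.55 CPM with WFA (SD, n = 3 each, log2 change 0.10, edgeR adjusted p = 0.345). The strand setting of the counting is not given in the sources used here, and reads from the shared stretch cannot be assigned to either gene with certainty.

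CDK4 and CDK6 are related kinases that share the D-type cyclins as partners. CDK4 was lower with WFA and CDK6 did not pass the test. CDK4 (chr12:57747727-57756013) had 196, 174 and 174 CPM with DMSO and 138, 132 and 143 CPM with WFA. The groups were separate, and the log2 change was -0.40 (SE 0.09, edgeR adjusted p = 0.00125), which leaves 75.8% of the DMSO level. CDK6 (chr7:92604921-92836594) had 448, 442 and 471 CPM with DMSO and 548, 538 and 458 CPM with WFA. WFA replicates 1 and 2 were above all DMSO libraries and WFA replicate 3 was not. Its log2 change was 0.18 with a 95% interval of -0.02 to 0.38 (edgeR adjusted p = 0.12). CDK6 passed the threshold with the replicate number as a block (log2 change 0.18, edgeR adjusted p = 0.0457) and without WFA replicate 3 (0.26, edgeR adjusted p = 0.0305), so its call rests on these choices. Over all genes tested, the block called 3877 higher, against 3311 without it. The prior degrees of freedom of the fit were infinite with the block and 10.81 without it. The block p-values therefore treat the spread between libraries as known, and the part of this in the CDK6 call was not tested. The log2 ratio of CDK6 to CDK4 went from 1.32 ± 0.12 to 1.90 ± 0.19 (SD, n = 3 each), with no overlap between the groups (exact permutation p = 0.1, adjusted p = 0.14). In reads, this is 2.50 CDK6 reads per CDK4 read with DMSO and 3.73 with WFA.

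CDK4 has a neighbour whose reads it may share. Its exons overlap those of TSPAN31, which encodes a tetraspanin on the opposite strand, over 43.2% of the CDK4 exon length. TSPAN31 moved the other way, from 30.2 ± 4.69 to 53.5 ± 2.05 CPM (SD, n = 3 each, log2 change 0.83, edgeR adjusted p = 2.79e-05). How reads in the shared stretch were counted is not given in the sources used here, so part of either gene's count could belong to the other. The part of this in the CDK4 result was not tested.

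**Figure D2:**
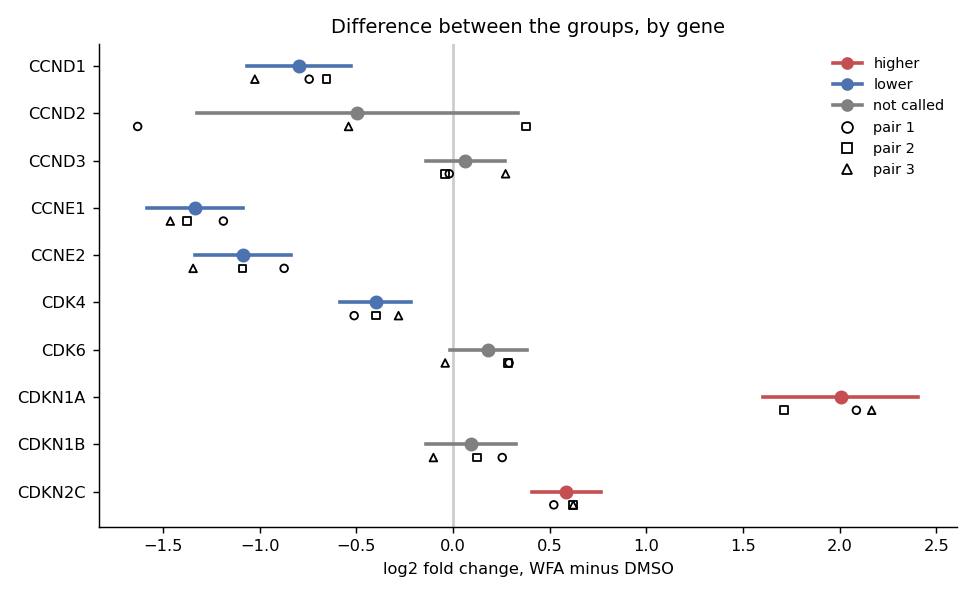
Log2 fold change (WFA minus DMSO) of the 10 genes with 95% intervals from edgeR, coloured by call, and the log2 ratio of each same-numbered pair of libraries as open symbols below. The intervals of CDKN1A, CDKN2C, CCND1, CCNE1, CCNE2 and CDK4 exclude 0, and the widest interval is that of CCND2, from -1.33 to 0.34.

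Of the inhibitors, CDKN1A (chr6:36676460-36687339) changed most and had the largest change of all 10 genes. It had 15.4, 20.8 and 24.2 CPM in DMSO replicates 1, 2 and 3 and 65.4, 68.1 and 108 CPM in the WFA replicates. Every WFA library was at least at 65.4 CPM and WFA replicate 3 stood above the other WFA libraries, as did DMSO replicate 3 among the DMSO libraries. The mean level went from 20.1 ± 4.42 to 80.6 ± 24.1 CPM (SD, n = 3 each), 4.02-fold, with a log2 change of 2.01 (SE 0.19, edgeR adjusted p = 5.99e-07). Without WFA replicate 3 the log2 change was 1.74, the lowest of the fits with a library left out. Within the same-numbered pairs the log2 ratio was 2.09, 1.71 and 2.17.

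CDKN2C (chr1:50960745-50974633) rose less, and per length of transcript it started from a far higher level. It had 279, 257 and 254 CPM with DMSO and 401, 395 and 391 CPM with WFA. The WFA libraries were close to each other and all above the DMSO libraries, with a log2 change of 0.59 (SE 0.08, edgeR adjusted p = 3.78e-05) and stood at 150.1% of the DMSO level. CDKN1B (chr12:12715058-12722371) had 26.0, 27.3 and 31.2 CPM with DMSO and 31.0, 29.8 and 29.03 CPM with WFA. These ranges overlap almost fully, and its log2 change was 0.09 with a 95% interval of -0.14 to 0.32 (edgeR adjusted p = 0.513).

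The inhibitors were also compared with each other inside each library. The log2 ratio of CDKN1B to CDKN1A was 0.51 ± 0.22 with DMSO and -1.39 ± 0.45 with WFA (SD, n = 3 each), or 1.42 CDKN1B reads per CDKN1A read with DMSO and 0.382 with WFA. The log2 ratio of CDKN2C to CDKN1A went from 3.73 ± 0.40 to 2.33 ± 0.42, or from 13.3 to 5.04 reads. Neither ratio overlapped between the groups (exact permutation p = 0.1 each, adjusted p = 0.14). The summed level of the 3 inhibitors was 305 to 321 CPM with DMSO and 493 to 528 CPM with WFA.

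**Figure D3:**
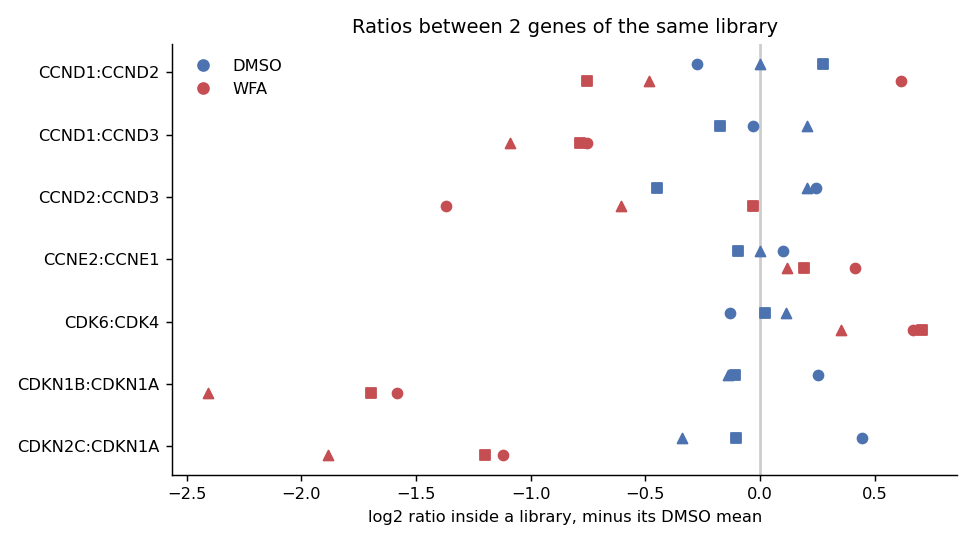
Log2 ratio of the counts of 2 genes in the same library, minus the mean of the 3 DMSO libraries, for 7 pairs of genes, with circles, squares and triangles for replicates 1, 2 and 3. The WFA libraries lie to 1 side of the DMSO libraries for all pairs but CCND1:CCND2 and CCND2:CCND3, both of which contain the low-count gene CCND2.

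Genes were also ordered by level per length, as CPM per kilobase of GENCODE 29 exon, since transcripts differ in length and CDK6 has a long one. With DMSO CDKN2C was first at 79.4 ± 4.13 CPM per kilobase (SD, n = 3 each, here and in what follows), ahead of CDK4 at 57.3 ± 4.08 and CDK6 at 37.0 ± 1.26. CCNE2 at 24.2 ± 1.121 and CCND3 at 22.6 ± 2.63 came next, and their ranges overlapped. CCNE1 at 12.7 ± 0.281, CDKN1B at 10.0 ± 0.950 and CDKN1A at 6.59 ± 1.45 lay in the lower part of the order. The last places were those of CCND1 at 4.76 ± 0.0872 and CCND2 at 0.150 ± 0.0278. Of all neighbours in this order, CCNE2 and CCND3 were the one pair that overlapped. With WFA CDKN1A moved from the eighth place to the fourth, at 26.4 ± 7.90 CPM per kilobase, and overlapped with CCND3 at 23.6 ± 1.10. CDK4 at 43.4 ± 1.82 and CDK6 at 42.0 ± 4.02 could no longer be separated, nor could CCNE2 at 11.4 ± 2.21 and CDKN1B at 10.7 ± 0.360. CDKN2C remained the highest at 119 ± 1.48 and CCND2 the lowest at 0.106 ± 0.0503 CPM per kilobase. The annotation behind the counts is not given in the sources used here, and several places depend on the length used. With the longest transcript as the length, which was chosen after seeing the data, CCND3 ranked 3 instead of 5 and CDK6 ranked 4 instead of 3 in both groups. CCNE2 then ranked 5 instead of 4 with DMSO, and CDKN1A ranked 5 instead of 4 with WFA.

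**Figure D4:**
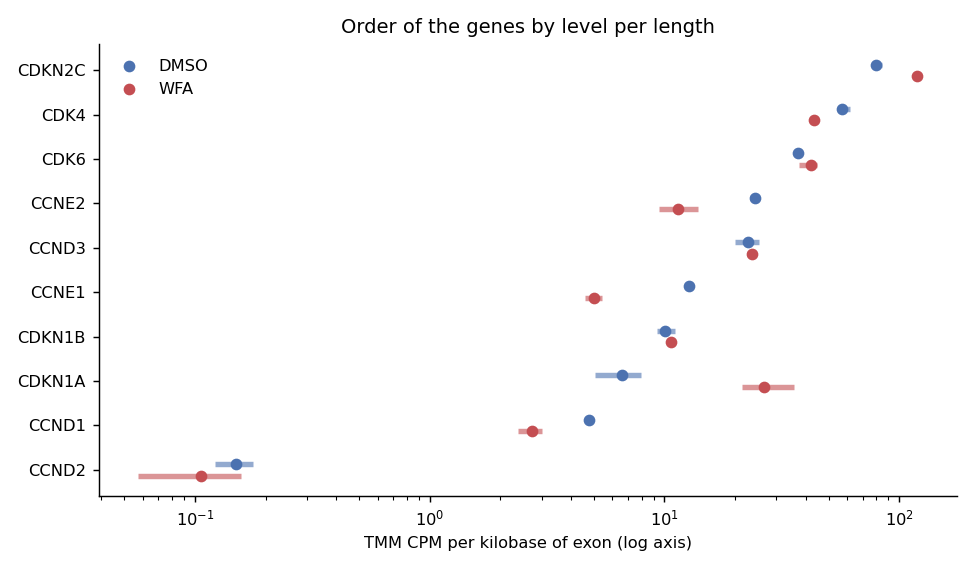
Level of the 10 genes as TMM CPM per kilobase of exon on a log axis, with group means as points and the range over the 3 libraries as bars, ordered by the DMSO mean. CDKN1A moves from 6.59 to 26.4 CPM per kilobase and CDKN2C is the highest in both groups.

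The other genes of the pathway were then counted on lists written from general knowledge, against the background of 25.8% of all tested genes higher and 24.7% lower. Of the 5 other CDK inhibitors, CDKN2A, CDKN2B and CDKN1C had 0 counts in all libraries, which allows up to 3 counts or 0.211 to 0.279 CPM per library. CDKN2D had 3.69 ± 0.740 CPM with DMSO and 4.19 ± 0.330 CPM with WFA, and CDKN3, a phosphatase of CDKs, 48.6 ± 6.11 and 43.4 ± 2.59 CPM (SD, n = 3 each). In edgeR's test 0 of these 2 genes were higher and 0 lower, also 0 and 0 at an unadjusted p-value under 0.05 and in DESeq2.

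Around CDK2 itself, 6 of 7 genes were tested, with 2 higher and 3 lower and a median log2 change of -0.40. CDC37, the HSP90 co-chaperone that loads kinases such as CDK4, rose from 188 ± 19.4 to 389.5 ± 6.36 CPM (SD, n = 3 per group), which is a log2 change of 1.05 (edgeR adjusted p = 3.49e-07). CCNH and MNAT1, both parts of the CDK-activating kinase, went apart, with log2 changes of -0.79 and 0.43 (edgeR adjusted p = 3.22e-05 and 0.00202). The phosphatase CDC25A and the inhibitory kinase WEE1 fell, with log2 changes of -0.60 and -0.56 (edgeR adjusted p = 9.88e-05 and 0.00104). CDK2 had 66.1 ± 4.38 CPM with DMSO and 56.3 ± 7.29 CPM with WFA (SD, n = 3 each) and did not pass (edgeR adjusted p = 0.0787). CDK7 was at 2 to 9 counts and was not tested.

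Among 13 pocket protein and E2F genes, 1 was higher and 6 were lower, with a median log2 change of -0.22. RB1 went from 150.3 ± 15.3 to 93.6 ± 7.42 CPM (SD, n = 3 per group), which is a log2 change of -0.68 (edgeR adjusted p = 3.21e-05), and its relative RBL1 fell by 0.47 on the log2 scale (edgeR adjusted p = 0.00236). E2F5 and E2F8 fell by 1.69 and 0.76 on the log2 scale (edgeR adjusted p = 0.000129 and 0.000207), whereas E2F6, a repressor that acts without RB1, rose by 0.42 (edgeR adjusted p = 0.00673). Activator E2F genes did not pass, with E2F1, E2F2 and E2F3 at log2 changes of -0.11, -0.22 and -0.04 (edgeR adjusted p = 0.487, 0.214 and 0.72). The number higher was 2 with the replicate block, without DMSO replicate 3 and without WFA replicate 2. That block called 3877 of all genes tested higher, against 3311 without it.

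E2F target genes of the G1/S transition leaned one way. Of 24 genes, 17 were lower and 1 was higher, with a median log2 change of -0.46. RRM2, a subunit of ribonucleotide reductase, went from 214 ± 25.2 to 73.5 ± 17.7 CPM (SD, n = 3 per group), which is a log2 change of -1.54 (edgeR adjusted p = 4.38e-07). MCM3, a part of the replicative helicase, UHRF1, which maintains DNA methylation, and CCNA2, the S phase cyclin, fell by 1.18, 0.96 and 0.93 on the log2 scale (edgeR adjusted p = 5.62e-07, 3.89e-06 and 1.11e-06). MCM5, another helicase subunit, rose instead, by 0.39 on the log2 scale (edgeR adjusted p = 0.0106).

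The list of ubiquitin ligases that clear G1 regulators, which also holds the deubiquitinases USP2 and USP28, had 7 of 16 genes lower and 2 higher, with a median log2 change of -0.10. CUL1, the scaffold of SCF ligases, went from 192 ± 7.34 to 93.2 ± 4.27 CPM (SD, n = 3 per group), which is a log2 change of -1.05 (edgeR adjusted p = 1.12e-07). SKP2, the F-box protein that directs CDKN1B and CDKN1A to degradation, went from 88.8 ± 9.58 to 48.2 ± 6.13 CPM (SD, n = 3 per group), which is a log2 change of -0.88 (edgeR adjusted p = 1.03e-05). DTL and FBXO31 fell by 0.88 and 0.93 on the log2 scale (edgeR adjusted p = 0.000177 and 0.00039). SKP1 and CKS1B, partners of SKP2, were higher by 0.26 and 0.35 (edgeR adjusted p = 0.0222 and 0.0178). These rises were fragile, as the number higher was 0 with total counts and without DMSO replicate 1, and 1 without DMSO replicate 3, WFA replicate 1 or WFA replicate 3. It was 3 with the replicate block and without WFA replicate 2. Over all genes tested, total counts called 2763 higher and the block 3877, against 3311 in the main fit.

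Of 23 transcription factors and cofactors known to act on the genes of this group, 7 were higher and 6 lower, with a median log2 change of 0.03. GFI1, MYB and MYC fell most clearly, with log2 changes of -2.68, -2.30 and -2.21 (edgeR adjusted p = 1.79e-11, 2.89e-09 and 2.49e-10). FOXO4, whose family activates CDKN1B, rose from 4.39 ± 0.703 to 19.7 ± 1.22 CPM (SD, n = 3 per group), which is a log2 change of 2.16 (edgeR adjusted p = 4.33e-08). Its relative FOXO1 rose by 1.18 (edgeR adjusted p = 6.28e-05). FOXO3, at the higher level of 74.9 ± 6.49 CPM with DMSO, did not pass (log2 change 0.15, edgeR adjusted p = 0.251). CDKN1B itself did not pass either (0.09, edgeR adjusted p = 0.513). Of the 28 other cyclins and CDKs, 3 were higher and 7 lower, with a median log2 change near 0. CDK18 rose by 1.19 and CCNG2 by 0.54 (edgeR adjusted p = 2.85e-05 and 0.00134). CCNF, CCNB1 and CDK1 fell by 0.75, 0.78 and 0.60 on the log2 scale (edgeR adjusted p = 5.2e-05, 0.000182 and 5.39e-05). Without WFA replicate 1 this list had 5 higher and 4 lower, and with the replicate block 6 higher. That block also called more genes higher over all genes tested, 3877 against 3311.

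**Figure D5:**
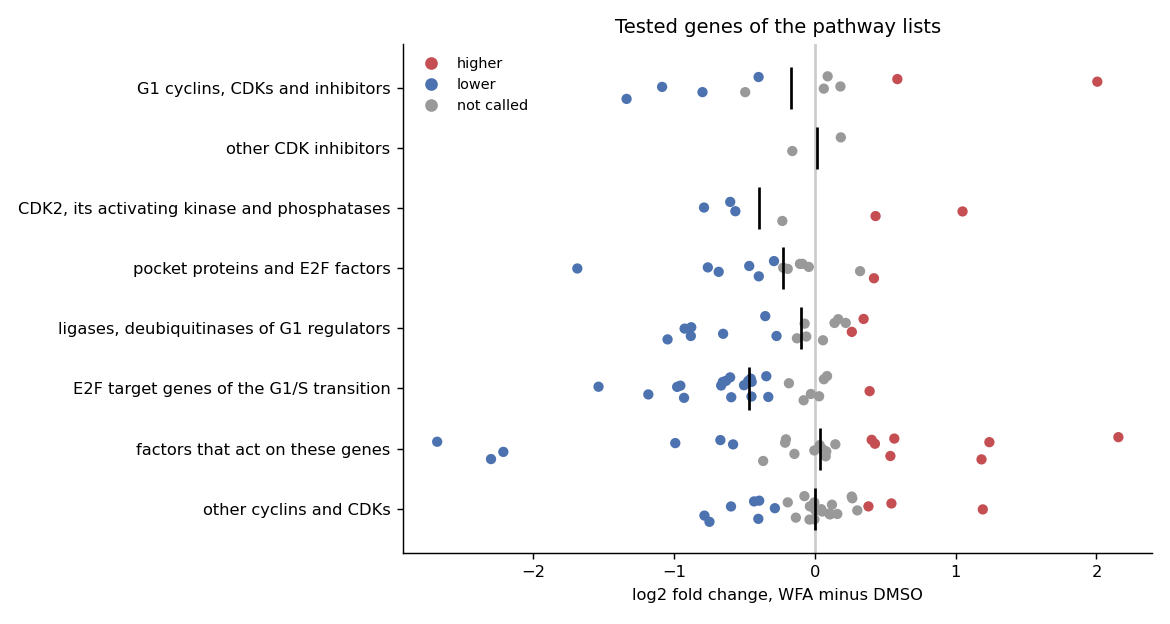
Log2 fold change (WFA minus DMSO) of each tested gene on the pathway lists, 1 point per gene coloured by call at an edgeR adjusted p-value under 0.05, with the median of the list as a black bar. The E2F target list has the lowest median, -0.46, and the lists of other CDK inhibitors, of other cyclins and CDKs and of factors that act on these genes have medians near 0.

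For each of the 10 genes, the tested gene with the nearest profile over the 6 libraries was found by Euclidean distance of centred log2 CPM. These were PIK3AP1 for CCND1, PLXNA4 for CCND2, RPS12 for CCND3, LMNB1 for CCNE1, SIGLEC5 for CCNE2, CCDC138 for CDK4, EBAG9 for CDK6, PHOSPHO1 for CDKN1A, RBAK for CDKN1B and CCT4 for CDKN2C. Distances ran from 0.04 for CCND1 to 0.35 for CCND2, with 0.30 for CDKN1A. PHOSPHO1 had a log2 change of 2.32, against 2.01 for CDKN1A, and the source of that distance was not tested. With 6 libraries in 2 groups, this measure mostly finds genes with a like difference between the groups.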

How the data were processed

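RNA-seq was performed on 6 libraries of THP1 cells, 3 per group. Raw read counts per gene symbol, deposited by the authors as whole numbers, were used. The same table holds scaled counts and the authors' own fold changes and p-values, which were not used. The submitters' processing notes name hg38, bcl2fastq 2.19, Trimmomatic, Bowtie2, Picard, featureCounts and DESeq2. The annotation, the strand setting and the treatment of duplicate or multiply mapped reads are not given in the sources used here.

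Counts were analysed in edgeR 4.0.16 (R 4.3.3) with TMM scaling. Low genes were removed by filterByExpr (minimum count 10), and the quasi-likelihood p-values of the 12854 remaining genes received a Benjamini-Hochberg adjustment (threshold 0.05). Alternatives used DESeq2 1.42.0 and limma 3.58.1. The fit was also run on simulated counts, in which few genes changed and same-numbered libraries shared no effect. That run does not test the fit under the conditions of these data. Centred profiles used log2 CPM with a prior count of 2. Intervals cover 95%, and counting floors of 3 counts cover counting error only. Replicates of a group gave a chi-square per gene of 5.92 to 10.9, so none was a duplicate. Same-numbered libraries share a string of digits in their labels, whose meaning is not stated there. Their deviations from the group means correlated at 0.22, 0.33 and 0.25 across genes, so a fit with the replicate number as a block was also made. Exon lengths and overlaps came from GENCODE 29 (GRCh38).

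The genes, lists and tests were chosen with earlier results of these data known. The genes named from each list are up to 4 with the smallest p-value among those past the threshold, up to 2 past it against the majority, and CDK inhibitors at or under 3 counts. CDK2, CDK7, CDKN2D, CDKN3, E2F1, E2F2, E2F3, FOXO1, FOXO3, USP2, USP28, INTS8, TSPAN31 and the markers were named after their values were seen. Some genes and 1 gene list are not reported here. Promoters of CCND1, CCND2 and CCNE2 were not analysed here, and that of CDKN2C is not shown because RefSeq lists 3 starts for it, and only the bases before each start are shown.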

Additional observations from a re-analysis of the deposited data

How the results depend on the processing

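The 6 calls among the 10 genes kept their direction in every alternative run and passed in all but one. Against a fold change of 1.5 (glmTreat), 1 gene was higher and 2 were lower, and CCND1, CDK4 and CDKN2C had adjusted p-values of 0.0928, 1 and 0.816, while over all genes 1114 were higher and 812 lower, compared with 3311 and 3178 against no change. The number higher was 3, with CDK6 added, with the replicate block (log2 change 0.18, adjusted p = 0.0457) and without WFA replicate 3 (0.26, adjusted p = 0.0305), and the block changed no other call among the 10. Over all genes the block called 3877 higher and 3708 lower, so it called more genes in general. Its prior degrees of freedom were infinite, against 10.81 in the main fit. CCND3 turned to -0.0196 with total counts, and its log2 change ranged from -0.0192 (without DMSO replicate 3) to 0.136 with 1 library left out. The log2 ratio of CCND1 to CCND2 changed by -0.621 to 0.0636, the latter without WFA replicate 2. The causes were not tested.

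On the lists, the number of ligase list genes higher was 0 with total counts, 3 with the replicate block and 0 to 3 with 1 library left out. Over all genes tested, total counts called 2763 higher and the block 3877, against 3311 in the main fit. With the replicate block, 2 pocket protein and E2F genes and 6 other cyclins and CDKs were higher. With 1 library left out these numbers were 1 to 2 and 2 to 5, and the other cyclins and CDKs that were lower numbered 4 to 8. CCND2, with 5 to 18 counts in a library, is limited by depth.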
